A study of Homo sapiens with 6 samples.

Results

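The genes described here are the sensors, transcription factors, chaperones, folding enzymes and degradation factors of the endoplasmic reticulum (ER) stress response, taken by symbol from a list of 40. The table of 11911 genes held 39 of them (7 sensors and transcription factors, 18 chaperones and folding factors, 14 degradation and translocon genes), and all 39 were among the 11892 genes tested. The remaining listed gene, WFS1, was not analysed here. The study sequenced RNA from RS4;11, a human B-cell precursor acute lymphoblastic leukemia (ALL) line that carries a KMT2A-AFF1 fusion. One arm of 3 libraries is labelled as having asparagine and the other arm of 3 as lacking it, with RNA of the second arm taken at 16 hours. The handling text is the same for all 6 samples: cells grown in a mixed DMEM and IMDM medium with 10% serum were spun down and moved to asparagine-free medium with 10% dialyzed serum. The column names of the deposited table carry abbreviations that could stand for untreated and asparaginase-treated, so the depleted arm is called asparagine-depleted here whatever the means of removal. Both arms are the same line with no other stated treatment. Nothing in the labels says that the replicates were separate cultures. Every p-value below therefore sets the difference between the arms only against the spread of libraries within the arms. That spread may be technical.

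The ER folds secreted and membrane proteins, and cells answer a surplus of unfolded protein there through membrane sensors. IRE1, the product of ERN1, splices XBP1 mRNA to give an active transcription factor, ATF6 is cleaved in the Golgi by the site-1 and site-2 proteases and enters the nucleus, and PERK, the product of EIF2AK3, phosphorylates the initiation factor eIF2. The first pair of arms raises transcription of chaperones such as HSPA5 (BiP) and of the machinery that pulls misfolded proteins out of the ER for the proteasome. The PERK arm shares its eIF2 step with GCN2, the kinase that reads uncharged tRNA, so amino acid shortage and ER stress have targets in common. L-asparaginase, an enzyme that removes asparagine from blood, is a standard drug in ALL.

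The table held between 29971364 and 51127073 reads per library, and the lowest read number of any of the 39 genes in a library was 94, for ERN1. Depleted library 1 stood apart from the other depleted libraries: its correlation with them across genes was 0.940 and 0.933 on log2(CPM + 1), whereas libraries 2 and 3 gave 0.996 and pairs from the arm with asparagine at least 0.992. In depleted libraries 2 and 3 the change of a gene also followed its GC content, with medians of 0.81 and 0.87 (log2) over the lowest of 5 GC classes and -0.86 and -0.89 over the highest, while library 1 gave 0.03 and -0.09. Values without library 1, or after a GC correction, are given beside a gene where that step changed its call or, for the GC correction, moved its value by over 1.5 times. All 11 B-cell precursor markers checked were in the table, with summed levels of 4128 to 4412 CPM (reads of the gene scaled to a fixed library total) with asparagine and 3167 to 4106 CPM in the depleted arm. These markers did not all move one way: IGLL1 stood at 780 to 920 CPM and 171 to 418 CPM, VPREB1 at 420 to 455 CPM and 94.1 to 169.9 CPM, and PAX5 at 998 to 1016 CPM and 1257 to 1460 CPM. Of KMT2A-rearranged leukemia markers, 4 of 5 were in the table (summed, 525 to 532 CPM, and 654 to 757 CPM when depleted), CD34 being absent. They also differed in direction. FLT3 stood at 204 to 216 CPM and 297 to 439 CPM, and MEIS1 at 138 to 147 CPM and 172 to 215 CPM. HOXA10 stood at 117 to 124 CPM and 78.5 to 113 CPM, and HOXA9 at 52.1 to 59.2 CPM and 23.8 to 73.0 CPM. Of markers of other cells, the table held 1 of 7 T-cell genes (LCK, 92.1 to 102 CPM and 48.9 to 88.5 CPM), 1 of 6 myeloid genes (CSF1R, 30.4 to 31.4 CPM and 16.0 to 28.9 CPM), none of 4 erythroid genes and 2 of 5 plasma-cell genes (IRF4 and MZB1, together 319 to 332 CPM and 237 to 332 CPM). The part of these markers in the results was not tested, and in RNA from bulk cultures fewer cells of a kind and less RNA per cell cannot be told apart.

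In depleted cells 5 of 7 sensors and transcription factors rose, 10 of 18 chaperones and folding factors fell, and of 14 degradation genes 6 rose and 3 fell. By limma on log2(CPM + 1) with Benjamini-Hochberg adjustment and a threshold of 0.05, 15 of the 39 genes were called higher in depleted cells and 13 lower, and 11 were not called. The background was high: 51.3% of all tested genes were called, 25.1% higher and 26.2% lower, against 38.5% and 33.3% of the 39. The median log2 change of the 39 genes was 0.00, as it was 0.01 over all tested genes. The classes differed in direction. Among the 7 sensors and transcription factors 5 were higher and none lower, and the median log2 change was 1.19. The 18 chaperones and folding factors divided into 4 higher and 10 lower (median -0.73). Among the 14 degradation and translocon genes 6 rose and 3 fell (median 0.26). At a change of at least 2-fold, 11 of the 39 genes were higher and 5 lower, where 10.7% and 11.3% of all tested genes were. The groups did not overlap, with every depleted library on the same side, for 17 genes upward and 15 downward, where 30.2% and 30.8% of all tested genes did so.

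**Figure D1:**
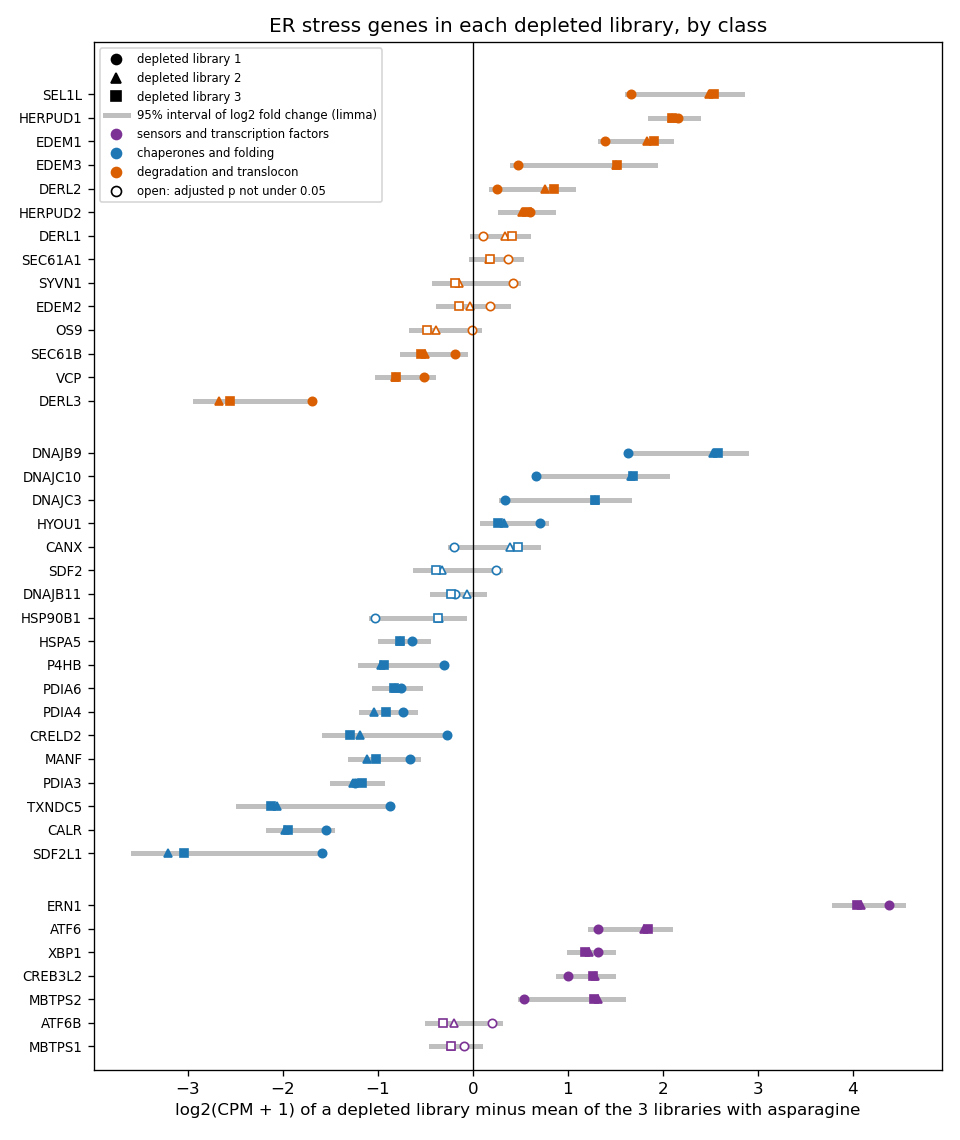
Log2(CPM + 1) of each depleted library minus the mean of the 3 libraries with asparagine (horizontal axis) for the 39 genes (rows, grouped by class), with circles, triangles and squares for depleted libraries 1, 2 and 3, open where the gene was not called, and grey bars for the 95% interval of the limma estimate. Of the sensors 5 of 7 lie to the right of 0 with no depleted library below it, 10 of 18 chaperones were called lower, and depleted library 1 lies apart from libraries 2 and 3 for many genes.

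Summed over each class, the sensors and transcription factors held 847, 871 and 837 CPM in the libraries with asparagine and 1651, 1635 and 1597 CPM in the depleted libraries. The chaperones and folding factors held 5365, 5598 and 5663 CPM with asparagine and 3725, 3797 and 3866 CPM without. For the degradation and translocon genes the sums were 2111, 2177 and 2102 CPM with asparagine and 3005, 3311 and 3388 CPM when depleted. None of these sums overlapped between the arms, and they are led by the few most abundant genes of each class, XBP1, CALR and EDEM1 among them.

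**Figure D2:**
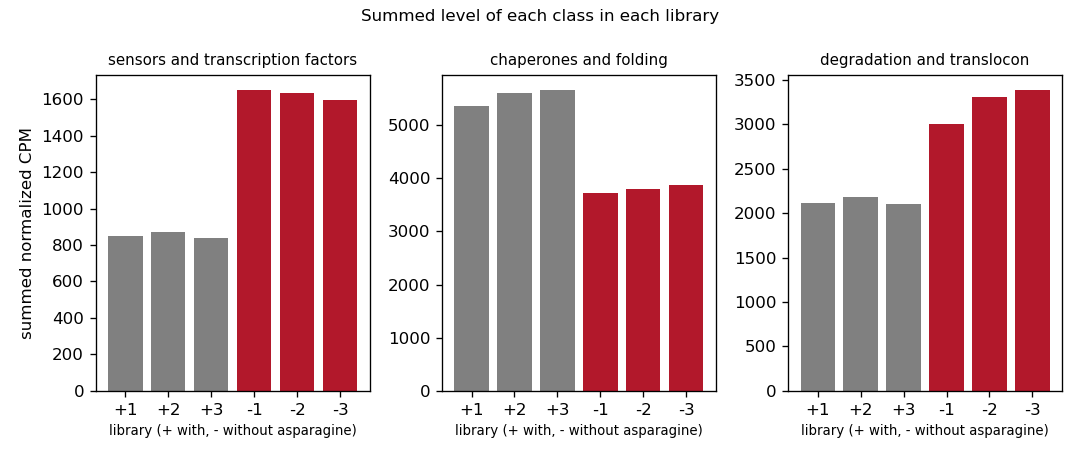
Summed normalized CPM (vertical axis) of each class in each library, with asparagine in grey (+1 to +3) and depleted in red (-1 to -3), each bar being 1 library. The chaperone sum stood at 5365 to 5663 CPM with asparagine and 3725 to 3866 CPM without, while the sensor and degradation sums were higher in all 3 depleted libraries.

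Sequences around the start site were searched for exact matches to elements read by the ER stress factors. The 4 short motifs below were searched on both strands in the RefSeq promoter windows of GRCh38.p14, each 250 bases before and 50 after the annotated start. Of the 39 genes 36 had a window, and PDIA3, DERL1 and DERL3 had none. The ER stress element (ERSE), which binds NF-Y together with ATF6 or XBP1, was searched as CCAAT, 9 bases of any kind and CCACG and was found in 22 of 27305 windows (0.0806%), 6 of them in these genes: XBP1, HSPA5, HSP90B1, CALR, CANX and CRELD2. Its relative ERSE-II (ATTGG, 1 base of any kind and CCACG) was found in 15 windows (0.0549%), of which HYOU1, SDF2L1 and HERPUD1 held 3. The unfolded protein response element (UPRE), TGACGTGG, was found in 217 windows (0.795%), among them HYOU1, DNAJC10 and VCP, and in HYOU1 it overlapped the upstream ERSE-II. The C/EBP-ATF response element (CARE) that ATF4 reads, TGATGNAA, was found in 1003 windows (3.67%) and in 1 of these 36 genes, HERPUD1. Among the 8972 windows of tested genes, the closer base for these genes, the shares differed. They were 0.156% for ERSE, 0.111% for ERSE-II, 0.925% for UPRE and 1.64% for CARE. The ERSE was first defined in promoters of ER chaperones, so its presence among these genes is not independent of how they came to be listed. A match is a description of the letters, not of a bound site. A gene without a match is not shown to lack an element. Only exact letters in 1 window per gene were searched, so variant letters and other start sites were not covered.

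Of the 9 genes with an ERSE or ERSE-II, 3 were called higher, 4 lower and 2 were not called, where 25.1% of all tested genes were called higher and 26.2% lower. The calls of HYOU1 (higher) and CRELD2 (lower) were each lost in 5 of 6 fits that left out 1 library (adjusted p up to 0.125 and 0.102), and HSP90B1, not called, was called lower without depleted library 1 (adjusted p = 0.00271). All 9 had an ERSE or ERSE-II match, but their sets of matches differed. HERPUD1 also had a CARE match, and HYOU1 a UPRE match and a further ERSE-II match. Upstream sequences are shown for 3 that were higher (XBP1, HERPUD1, HYOU1) and 3 that were lower (HSPA5, CALR, SDF2L1). Each is the 250 bases before the RefSeq start in GRCh38.p14, 5′ to 3′ on the gene's strand, with motif matches in capitals. XBP1 lies on the minus strand (chr22:28800570-28800819), HERPUD1 on the plus strand (chr16:56931892-56932141), HYOU1 on the minus strand (chr11:119057206-119057455), HSPA5 on the minus strand (chr9:125241344-125241593), CALR on the plus strand (chr19:12938359-12938608) and SDF2L1 on the plus strand (chr22:21642052-21642301).
XBP1: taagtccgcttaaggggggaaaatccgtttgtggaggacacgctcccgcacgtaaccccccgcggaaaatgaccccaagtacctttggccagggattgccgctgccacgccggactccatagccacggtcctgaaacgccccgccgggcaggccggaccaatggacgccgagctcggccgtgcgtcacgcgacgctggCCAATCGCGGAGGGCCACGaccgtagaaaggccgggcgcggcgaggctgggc
HERPUD1: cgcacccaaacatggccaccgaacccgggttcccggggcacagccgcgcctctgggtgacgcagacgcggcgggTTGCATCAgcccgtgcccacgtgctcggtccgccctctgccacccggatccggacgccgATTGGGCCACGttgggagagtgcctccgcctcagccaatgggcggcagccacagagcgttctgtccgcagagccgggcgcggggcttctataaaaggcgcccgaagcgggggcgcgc
HYOU1: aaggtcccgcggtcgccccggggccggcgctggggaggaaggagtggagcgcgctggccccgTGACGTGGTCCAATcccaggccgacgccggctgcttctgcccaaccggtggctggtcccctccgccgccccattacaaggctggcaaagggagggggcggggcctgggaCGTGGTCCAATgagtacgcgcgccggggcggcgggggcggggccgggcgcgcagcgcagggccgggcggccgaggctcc
HSPA5: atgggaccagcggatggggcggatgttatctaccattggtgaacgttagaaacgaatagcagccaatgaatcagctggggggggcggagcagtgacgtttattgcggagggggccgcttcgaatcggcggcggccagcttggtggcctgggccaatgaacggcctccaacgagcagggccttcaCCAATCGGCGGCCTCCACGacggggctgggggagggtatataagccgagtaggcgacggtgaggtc
CALR: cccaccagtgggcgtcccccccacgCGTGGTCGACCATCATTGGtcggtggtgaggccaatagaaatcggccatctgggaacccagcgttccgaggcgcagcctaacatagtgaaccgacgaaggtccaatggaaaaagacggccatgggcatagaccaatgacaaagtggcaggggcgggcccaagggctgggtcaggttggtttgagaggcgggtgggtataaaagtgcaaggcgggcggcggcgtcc
SDF2L1: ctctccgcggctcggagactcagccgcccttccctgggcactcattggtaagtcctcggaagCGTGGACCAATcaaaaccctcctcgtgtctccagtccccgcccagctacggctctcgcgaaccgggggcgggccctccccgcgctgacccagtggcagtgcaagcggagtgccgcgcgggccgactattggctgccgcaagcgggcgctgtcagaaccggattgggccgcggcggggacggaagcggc
Counted from the start site, the ERSE of XBP1 covers -52 to -34 and that of HSPA5 -66 to -48, both in the forward direction. In CALR the match lies at -225 to -207 on the opposite strand. The ERSE-II of HERPUD1 covers -117 to -107, with a CARE match on the opposite strand at -176 to -169. Matches to ERSE-II on the opposite strand lie at -188 to -178 in SDF2L1 and at -185 to -175 and -79 to -69 in HYOU1, the first of which shares bases with its UPRE at -188 to -181. Of the 25 genes with no match to any of the 4 motifs, 11 were called higher, 6 lower and 8 were not called. Of all tested genes 25.1% were called higher and 26.2% lower.

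Of the sensors and their transcription factors, ERN1, XBP1, ATF6, MBTPS2 and CREB3L2 were called higher, and ATF6B and MBTPS1 were not called. ERN1, which encodes the kinase and nuclease IRE1 (chromosome 17, 64039142 to 64130819, minus strand, GENCODE 29 on GRCh38), stood at 3.26, 2.59 and 3.11 CPM with asparagine and 82.1, 66.5 and 64.5 CPM in depleted libraries. All 3 depleted values lay far above the others, and library 1 was the highest. The means were 2.99 ± 0.351 and 71.0 ± 9.66 CPM (SD, n = 3 each), a 23.8-fold rise in mean CPM and a log2 change of 4.17 (SE 0.15, adjusted p = 3.03e-05). Of the 39 genes this was the largest change.

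XBP1, the basic leucine zipper factor whose mRNA IRE1 splices (chromosome 22, 28794555 to 28800597, minus strand), was the most abundant of the class at 344, 354 and 347 CPM with asparagine and 867, 815 and 793 CPM without. The libraries of each arm lay close together, and the arms did not overlap. Its log2 change was 1.24 (SE 0.10, adjusted p = 0.000287), or 2.37-fold. The table has 1 value per gene, so spliced and unspliced XBP1 mRNA were not separated, and 1 named XBP1 pseudogene could share reads with it.

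ATF6, the membrane-bound factor freed by cleavage (chromosome 1, 161766294 to 161964070, plus strand), stood at 27.1, 29.9 and 32.3 CPM with asparagine. In depleted cells it stood at 75.6, 106 and 109 CPM, with library 1 the lowest and no overlap. The log2 change was 1.66 (SE 0.18, adjusted p = 0.000752), or 3.26-fold. Its paralog ATF6B, a weaker factor of the same design, was at 174, 181 and 159.9 CPM with asparagine and 198, 149 and 138 CPM when depleted. These values overlapped, with library 1 the highest of the depleted arm, and the log2 change of -0.10 (95% interval -0.48 to 0.28, adjusted p = 0.616) was not called. ATF6B was called lower without depleted library 1 (-0.25, adjusted p = 0.0123) and higher once GC content was corrected for (0.32, adjusted p = 0.00144), so it has no settled direction. Its exons also overlap those of TNXB on the same strand.

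The proteases that cut ATF6 differed from each other. MBTPS2, the site-2 protease, rose from 24.8, 23.0 and 26.8 CPM to 36.4, 63.2 and 61.3 CPM, with depleted library 1 the lowest and no overlap (log2 change 1.04, SE 0.23, adjusted p = 0.00966). After the GC correction its change was 0.40 (adjusted p = 0.0053), still called. MBTPS1, the site-1 protease, was at 145, 155 and 146 CPM with asparagine and 139, 127 and 127 CPM when depleted. All depleted values of MBTPS1 were lower, but the log2 change of -0.18 (95% interval -0.44 to 0.08, adjusted p = 0.194) was not called unless depleted library 1 was left out (-0.23, adjusted p = 0.0119), and its GC-corrected change was -0.11 (adjusted p = 0.0714). Exons of MBTPS2 overlap those of YY2 on the same strand. CREB3L2, a relative of ATF6 that is also activated by cleavage and drives secretory pathway genes, rose from 129, 126 and 122 CPM to 254, 308 and 304 CPM. The arms were well separated, with a log2 change of 1.19 (SE 0.12, adjusted p = 0.000671).

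HSPA5, the gene of BiP, the central HSP70 chaperone of the ER and the usual marker of the response (chromosome 9, 125234853 to 125241330, minus strand), was lower in depleted cells. It stood at 493, 548 and 546 CPM with asparagine and 339, 309.8 and 309.7 CPM without. No values overlapped, and the means of 529 ± 30.9 and 319 ± 16.7 CPM (SD, n = 3 each) gave a 1.66-fold fall. Its log2 change was -0.73 (SE 0.11, adjusted p = 0.00228), with a GC-corrected value of -0.95.

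CALR, encoding the lectin chaperone and calcium store calreticulin (chromosome 19, 12938578 to 12944489, plus strand), was the most abundant gene of the 39 with asparagine, at 1163, 1220.2 and 1161 CPM. In depleted libraries it stood at 405, 299 and 307 CPM, with library 1 the highest and no overlap. The fall was 3.51-fold, a log2 change of -1.82 (SE 0.14, adjusted p = 0.000284). CANX, the membrane-bound partner calnexin, did not share it: it was at 596, 609 and 707 CPM with asparagine and 552, 832 and 884 CPM when depleted. The CANX values overlapped because depleted library 1 was the lowest of all 6 and libraries 2 and 3 the highest. Its log2 change was 0.22 (95% interval -0.24 to 0.68, adjusted p = 0.371). Without library 1 the change was 0.43 (adjusted p = 0.000564), and with GC content corrected it was 0.03 (adjusted p = 0.814).

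PDIA3, PDIA4, PDIA6, TXNDC5 and P4HB, protein disulfide isomerases that form and rearrange disulfide bonds, were all called lower. PDIA3, the isomerase that works with calreticulin and calnexin, fell from 244, 274 and 250.5 CPM to 108, 106 and 113 CPM (log2 change -1.22, SE 0.11, adjusted p = 0.000443). PDIA4 fell from 351, 372 and 359.7 CPM to 217, 175 and 192 CPM, and PDIA6 from 572, 632 and 631 CPM to 361, 347 and 344 CPM. These 3 genes were called with changes of -0.80 to -1.22, without overlap. TXNDC5, a further thioredoxin-domain isomerase, stood at 44.7, 53.1 and 48.3 CPM with asparagine and at 26.1, 10.9 and 10.4 CPM without. Depleted library 1 kept more TXNDC5 than libraries 2 and 3, and the log2 change was -1.68 (SE 0.33, adjusted p = 0.00686). P4HB, the founding member of the family and a subunit of prolyl 4-hydroxylase, fell from 591, 590.3 and 553 CPM to 468, 295 and 301 CPM (log2 change -0.74, SE 0.19, adjusted p = 0.0182). Its call was lost without asparagine library 1 or 2 or depleted library 2 or 3 (adjusted p up to 0.0681), and its GC-corrected change was -0.26 (adjusted p = 0.00216). PDIA3 has 2 named pseudogenes, and exons of PDIA3 and PDIA6 overlap exons of other genes in the table on the opposite strand. The same holds for DNAJB9, CRELD2, HSP90B1, SDF2, DNAJB11 and SEC61A1, described below. Whether reads were counted by strand is not given in the sources used here.

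SDF2L1, MANF and CRELD2, further soluble ER factors, also fell. SDF2L1, which assists BiP with its DNAJ partners (chromosome 22, 21642261 to 21644298, plus strand), stood at 98.5, 108 and 95.3 CPM with asparagine and 32.7, 9.99 and 11.3 CPM when depleted. Library 1 was about midway on the log scale, and no values overlapped. The fall was 5.59-fold, a log2 change of -2.61 (SE 0.41, adjusted p = 0.00282), with a GC-corrected value of -1.89. Its paralog SDF2 was at 36.9, 36.3 and 36.1 CPM with asparagine and 43.2, 28.8 and 27.7 CPM without. Library 1 lay above and libraries 2 and 3 below all libraries with asparagine, and the change of -0.16 (95% interval -0.61 to 0.29, adjusted p = 0.504) was not called unless library 1 was left out (-0.36, adjusted p = 0.00274). MANF, a small secreted ER stress factor, fell from 111, 118 and 113 CPM to 71.7, 52.2 and 55.7 CPM (log2 change -0.94, SE 0.15, adjusted p = 0.00303). CRELD2, a secreted disulfide-handling protein, fell from 66.2, 75.2 and 64.1 CPM to 56.4, 29.5 and 27.2 CPM (log2 change -0.92, SE 0.28, adjusted p = 0.0298). The CRELD2 call held with all libraries and without depleted library 1, and was lost when any other library was left out (adjusted p up to 0.102). After the GC correction its change was -0.41 (adjusted p = 0.00825).

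The rises in this class were among the J-domain co-chaperones of BiP and the large HSP70 relative HYOU1. DNAJB9, known as ERdj4, an ER J-protein that binds IRE1 and aids degradation (chromosome 7, 108569568 to 108574850, plus strand), stood at 16.3, 15.0 and 18.0 CPM with asparagine and 53.1, 99.5 and 103 CPM when depleted. Every depleted library was far above the others, with library 1 the lowest of them. The rise was 5.19-fold, a log2 change of 2.25 (SE 0.26, adjusted p = 0.00103). DNAJC10, an ER disulfide reductase with a J domain, rose from 86.5, 69.3 and 96.0 CPM to 132, 266 and 269.8 CPM (log2 change 1.34, SE 0.30, adjusted p = 0.00998). With GC content corrected the rise was 0.68. DNAJC3, known as p58IPK, a J-protein that also restrains eIF2 kinases, rose from 40.5, 29.8 and 40.5 CPM to 46.7, 90.9 and 90.4 CPM (log2 change 0.97, SE 0.28, adjusted p = 0.0274). Its call held without depleted library 1 and was lost when any other library was left out (adjusted p up to 0.101), and its GC-corrected change was 0.46 (adjusted p = 0.00423). DNAJB11, known as ERdj3, showed no such rise, at 86.8, 92.8 and 93.4 CPM with asparagine and 79.8, 87.2 and 77.7 CPM without. The values of DNAJB11 overlapped, and the change of -0.16 (95% interval -0.43 to 0.11, adjusted p = 0.276) was not called, but the GC-corrected change was (-0.27, adjusted p = 0.00685).

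HYOU1, a nucleotide exchange factor for BiP (chromosome 11, 119044189 to 119057202, minus strand), was at 299, 309 and 304 CPM with asparagine and 498, 381 and 367 CPM when depleted. No values overlapped, and library 1 was the highest. Its log2 change of 0.43 (SE 0.14, adjusted p = 0.0403) was called with all libraries and without depleted library 1, and was lost when any other library was left out (adjusted p up to 0.125). After the GC correction the change was 0.74 (adjusted p = 1.52e-05). HSP90B1, the ER HSP90 known as GRP94, stood at 467, 446 and 545 CPM with asparagine and 236, 378 and 376 CPM when depleted. All depleted values were lower, with library 1 the lowest, and the log2 change of -0.58 (95% interval -1.08 to -0.09) had an adjusted p of 0.0502, just outside the threshold. It was called without library 1 (-0.36, adjusted p = 0.00271), and its GC-corrected change of -0.94 was also called (adjusted p = 3.7e-05).

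**Figure D3:**
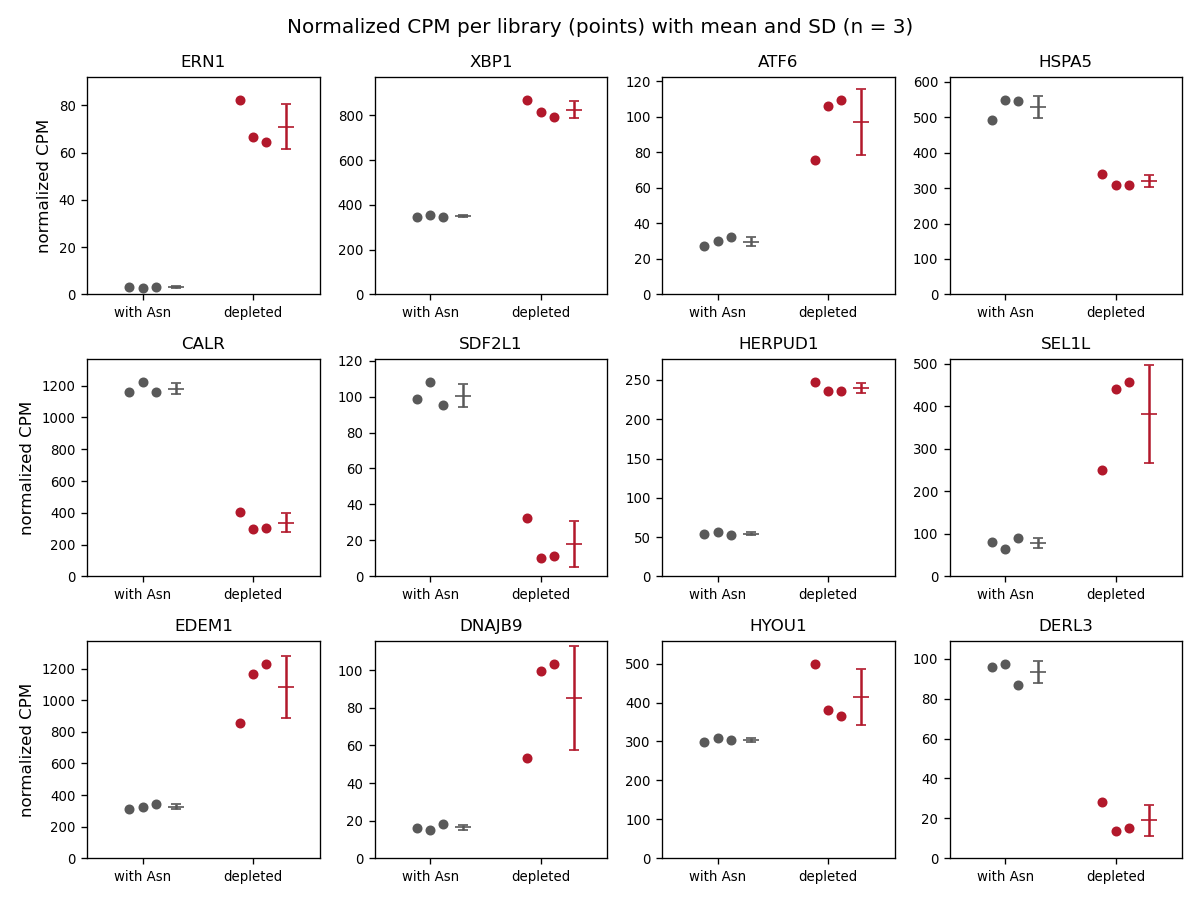
Normalized CPM (vertical axes, each from 0) of 12 genes in each library, with asparagine in grey and depleted in red, and the mean and SD of each arm (n = 3) beside the points. ERN1 rose from about 3 to between 64.5 and 82.1 CPM, whereas HSPA5, CALR, SDF2L1 and DERL3 were lower in every depleted library.

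Among the degradation genes, SEL1L, HERPUD1, HERPUD2, EDEM1, EDEM3 and DERL2 were called higher, and DERL3, VCP and SEC61B lower. SEL1L, the adaptor of the HRD1 ubiquitin ligase (chromosome 14, 81471549 to 81533861, minus strand), stood at 80.4, 65.2 and 89.4 CPM with asparagine and 249, 439 and 456 CPM when depleted. No values overlapped, library 1 being the lowest of the depleted arm. The rise was 4.87-fold, a log2 change of 2.23 (SE 0.26, adjusted p = 0.000973). SYVN1, the gene of the HRD1 ligase itself, was at 286, 300.2 and 250.4 CPM with asparagine and 374, 252 and 244 CPM without. The highest and the lowest of the 6 values were both in the depleted arm. The change of 0.03 (95% interval -0.41 to 0.48, adjusted p = 0.895) was not called, and after the GC correction SYVN1 was called higher (0.49, adjusted p = 0.000117). Exons of SYVN1 overlap other genes of the table on both strands.

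HERPUD1, a ubiquitin-like membrane protein that recruits the ligase complex (chromosome 16, 56932048 to 56944863, plus strand), gave the tightest rise of the class. It stood at 53.3, 56.7 and 53.1 CPM with asparagine and 247, 236 and 236 CPM when depleted. Here library 1 did not stand apart. The means of 54.4 ± 2.04 and 239.7 ± 6.24 CPM (SD, n = 3 each) gave a 4.41-fold rise and a log2 change of 2.12 (SE 0.11, adjusted p = 6.09e-05). HERPUD2, its paralog, rose less, from 14.7, 15.3 and 15.5 CPM to 23.5, 22.2 and 22.9 CPM (log2 change 0.56, SE 0.12, adjusted p = 0.00823). Leaving out asparagine library 1 took HERPUD2 just past the threshold (adjusted p = 0.0509).

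The EDEM proteins trim mannose from misfolded glycoproteins or bind them for disposal. EDEM1 (chromosome 3, 5187646 to 5219957, plus strand) rose from 312, 324 and 344 CPM to 856, 1168 and 1226 CPM. The arms were far apart, with a log2 change of 1.71 (SE 0.16, adjusted p = 0.00047), or 3.31-fold. EDEM3 rose from 51.1, 35.4 and 53.7 CPM to 64.1, 133 and 133 CPM (log2 change 1.17, SE 0.32, adjusted p = 0.0215). Its depleted library 1 lay near the libraries with asparagine. The EDEM3 call was lost without asparagine library 1 or 2 or depleted library 2 or 3 (adjusted p up to 0.0813), and its GC-corrected change was 0.56 (adjusted p = 0.00129). EDEM2 was at 25.3, 26.9 and 21.2 CPM with asparagine and 27.7, 23.7 and 21.96 CPM without, in full overlap. Its change of 0.00 (95% interval -0.37 to 0.37, adjusted p = 0.999) was not called, and was 0.25 after the GC correction (adjusted p = 0.0398).

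The derlins, membrane proteins that help move misfolded proteins out of the ER, did not move as a family. DERL3 (chromosome 22, 23834503 to 23839128, minus strand), the form typical of secretory cells, fell from 96.0, 97.1 and 86.9 CPM to 28.1, 13.8 and 15.0 CPM. There was no overlap, and the fall was 4.92-fold (log2 change -2.31, SE 0.26, adjusted p = 0.000922). DERL2 rose from 31.3, 33.3 and 32.3 CPM to 38.6, 55.4 and 59.2 CPM (log2 change 0.62, SE 0.18, adjusted p = 0.0269). Its call held without depleted library 1 and was lost when any other library was left out (adjusted p up to 0.0958), and the GC-corrected change was 0.35 (adjusted p = 0.00781). DERL1 was at 173, 179 and 179 CPM with asparagine and 190.0, 225 and 236 CPM when depleted. All depleted values of DERL1 were higher, but the change of 0.29 (95% interval -0.01 to 0.58, adjusted p = 0.09) was not called. It was called without library 1 (0.38, adjusted p = 0.000371) and with quantile normalization (0.41, adjusted p = 0.0328), and the GC-corrected change of 0.07 was not (adjusted p = 0.241). Exons of all 3 derlin genes overlap exons of another gene of the table on the opposite strand.

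Of the remaining genes, VCP, the ATPase known as p97 that extracts ubiquitinated proteins from the membrane, fell from 503, 542 and 504 CPM to 361, 292 and 294 CPM (log2 change -0.71, SE 0.12, adjusted p = 0.00426). Its GC-corrected change was -0.34 (adjusted p = 0.00342), with the call kept. OS9, a lectin that hands glycoproteins to the ligase, was at 191, 196 and 188 CPM with asparagine and 191, 146 and 137 CPM without. Library 1 lay among the libraries with asparagine, and the change of -0.29 (95% interval -0.65 to 0.06, adjusted p = 0.141) was not called. It was called without library 1 (-0.44, adjusted p = 0.000166), whereas the GC-corrected change was -0.02 (adjusted p = 0.762). SEC61B, the beta subunit of the translocon, fell from 60.4, 61.5 and 60.1 CPM to 53.2, 42.4 and 41.3 CPM (log2 change -0.41, SE 0.14, adjusted p = 0.0438). This call held without depleted library 1 and was lost when any other library was left out (adjusted p up to 0.145) and with quantile normalization (adjusted p = 0.0644). SEC61A1, the channel subunit, was at 232, 244 and 224 CPM with asparagine and 302, 263 and 265 CPM when depleted. All depleted values of SEC61A1 were higher, and the change of 0.24 (95% interval -0.02 to 0.51, adjusted p = 0.109) was called without library 1 (0.18, adjusted p = 0.0289) and with quantile normalization (0.40, adjusted p = 0.0202). Its GC-corrected change of 0.42 was called too (adjusted p = 0.000224).

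Some close relatives and partners differed in their change, and 7 such pairs, chosen after their values were seen, are described here as ratios taken inside each library, with no test. Other relatives moved the same way, such as PDIA3, PDIA4 and PDIA6, or EDEM1 and EDEM3. On log2(CPM + 1), DERL3 minus DERL2 was 1.59, 1.52 and 1.40 with asparagine and -0.45, -1.93 and -1.91 when depleted. DERL3 was the higher of the pair in all libraries with asparagine and the lower in all depleted ones, a change of -2.93. SDF2L1 minus SDF2 likewise went from 1.39, 1.55 and 1.38 to -0.39, -1.44 and -1.22, a change of -2.46. SEL1L minus SYVN1 rose by 2.20, from -1.82, -2.19 and -1.48 to -0.58, 0.80 and 0.90. ATF6 against ATF6B rose by 1.76, EDEM1 against EDEM2 by 1.71, HERPUD1 against HERPUD2 by 1.56 and MBTPS2 against MBTPS1 by 1.22. The arms did not overlap for any of the 7 pairs. The choice of pairs fixed this. All 7 changes kept their sign after the GC correction, at -2.10 for DERL3 against DERL2, -1.69 for SDF2L1 against SDF2 and 0.50 to 1.39 for the rest.

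Levels of different genes can be compared per kilobase of transcript, here the longest protein-coding transcript in GENCODE 29. With asparagine the order was led by CALR at 621 CPM per kb, followed by PDIA6 at 228, P4HB at 222 and XBP1 at 188 CPM per kb. ERN1 was the lowest of the 39, at 0.379 CPM per kb. In depleted cells XBP1 led at 446 CPM per kb. Behind it came CANX at 177, CALR at 177 and EDEM1 at 176 CPM per kb, which differed among themselves by less than the spread between libraries (the SD of CANX was 178 CPM around a mean of 756 CPM). EDEM1 moved from rank 19 to 4 and HERPUD1 from 26 to 11, while SDF2L1 moved from rank 10 to 28 and DERL3 from 24 to 38. ERN1 at 9.02 CPM per kb remained near the bottom, at rank 36, despite the largest fold change. HSPA5 moved from rank 7, at 135 CPM per kb, to rank 10, at 81.7 CPM per kb.

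Because depleted libraries 2 and 3 followed GC content, the 39 genes were set against genes of like composition. The lowest of the 5 GC classes held 7 of the 39 (ATF6, MBTPS2, DNAJB9, DNAJC3, DNAJC10, SEL1L and EDEM3), and all 7 were called higher, where 37.9% of all genes of that class were. The highest class held 3 (SDF2L1, DERL3 and CRELD2), and all 3 were called lower, where 46.0% of that class were. Counted up from the lowest, class 2 held 7, with 1 higher and 3 lower, against 38.0% and 14.2% of that class. Class 3 held 9, with 5 higher and 1 lower, against 27.6% and 27.3%. Class 4 held 13, with 2 higher and 6 lower, against 14.1% and 39.9%. After each library was corrected for its trend with GC, all 28 called genes kept their direction and their call. ATF6B, SYVN1, EDEM2 and SEC61A1 were then called higher as well, and HSP90B1 and DNAJB11 lower, for 19 higher and 15 lower against 35.1% and 34.3% of all genes. Class medians after correction were 1.18 for sensors, -0.55 for chaperones and 0.39 for degradation genes. The correction moved values by over 1.5 times for several genes named above, for instance MBTPS2 from 1.04 to 0.40 and DNAJC10 from 1.34 to 0.68. Without depleted library 1, 18 of the 39 were called higher and 18 lower, where 40.5% and 41.3% of all genes were. With both steps together, 20 were higher and 16 lower, where 39.6% and 38.7% of all genes were.

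**Figure D4:**
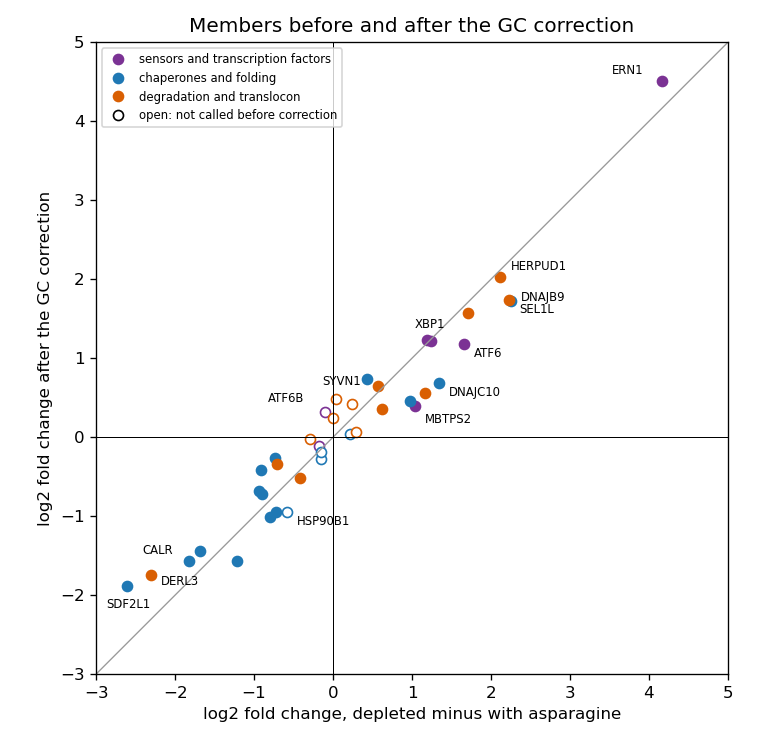
Log2 fold change (depleted minus with asparagine) of the 39 genes before (horizontal axis) and after (vertical axis) correction for GC content, colored by class, with open circles for genes not called before correction and a grey line of equality. ERN1 (4.17 and 4.51) lies farthest up, low-GC genes such as DNAJC10 fall under the line, and SDF2L1 and DERL3 move toward 0 but stay lower.

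Other genes of the response were taken from lists by function. These lists were chosen with earlier results of these data known, so their shares are not independent of the data. The PERK arm has targets in common with GCN2, and which kinase acted was not tested. In the PERK arm 6 of 7 tested genes (85.7%) were called higher and none lower, where 25.1% and 26.2% of all tested genes were. The median log2 change of this list was 3.31. TRIB3, a pseudokinase target of ATF4 and CHOP, rose from 24.0, 24.8 and 19.1 CPM to 572, 377 and 374 CPM (log2 change 4.20, SE 0.20, adjusted p = 5.56e-05). PPP1R15A, the phosphatase subunit GADD34 that resets eIF2, rose from 26.8, 26.9 and 22.7 CPM to 573, 404 and 408 CPM, and ATF3, a stress transcription factor, from 5.29, 6.42 and 5.76 CPM to 93.7, 90.6 and 81.6 CPM. Depleted library 1 was the highest for all 3 genes. EIF2AK3, the PERK gene, rose from 28.3 ± 2.18 to 50.1 ± 11.98 CPM (SD, n = 3 each, log2 change 0.78, adjusted p = 0.0173), and its call was lost without asparagine library 1 or 2 or depleted library 2 or 3 (adjusted p up to 0.0739). Its GC-corrected change was 0.33 (adjusted p = 0.00946). ATF4, the factor translated when eIF2 is phosphorylated, was not called (log2 change 0.24, adjusted p = 0.397), but was after the GC correction (0.55, adjusted p = 0.00291). All 7 genes were then called higher, where 35.1% of all genes were. The count ran from 5 to 7 over the alternatives.

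Of 16 further folding and oxidation factors 3 (18.8%) were called higher and 5 (31.2%) lower, near the 25.1% and 26.2% of all tested genes, with a median of 0.10. After the GC correction 5 were higher and 7 lower, where 35.1% and 34.3% of all genes were, and the median was -0.18. FKBP11, a prolyl isomerase of secretory cells, fell from 54.3, 57.6 and 50.3 CPM to 19.4, 13.6 and 13.4 CPM (log2 change -1.76, SE 0.17, adjusted p = 0.000586). FKBP2, another ER prolyl isomerase, changed by -1.32 (adjusted p = 0.0139), or -0.72 after the GC correction (adjusted p = 0.00299). Its call was lost without asparagine library 2 or depleted library 2 (adjusted p up to 0.0515). TMX4, a transmembrane thioredoxin-like protein, rose from 176, 181 and 201 CPM to 470.1, 699 and 717 CPM (log2 change 1.73, SE 0.18, adjusted p = 0.000733). Of 23 further degradation factors 11 (47.8%) were called higher and 3 (13.0%) lower, with a median of 0.46. The 20 of them with a GC value gave 11 higher and 3 lower after the GC correction, against 35.1% and 34.3% of all genes. Their median was 0.20. FAF2, which brings VCP to the membrane, rose from 86.3, 91.4 and 97.2 CPM to 168, 205 and 185 CPM (log2 change 1.01, SE 0.13, adjusted p = 0.00127), and ERLEC1, a lectin like OS9, changed by 0.96 (adjusted p = 0.00825), or 0.47 after the GC correction (adjusted p = 0.00352). UFD1L, a cofactor of VCP, fell from 54.2, 52.6 and 53.8 CPM to 23.9, 17.5 and 17.4 CPM (log2 change -1.42, SE 0.16, adjusted p = 0.000855).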

How the data were processed

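RNA-seq libraries of RS4;11 cells, 3 with asparagine and 3 asparagine-depleted, were analysed from the authors' deposited gene table. Its values are a signal in CPM (reads per gene scaled to a fixed library total) rescaled between libraries by the authors. Per the submitters' processing notes, FastQC, STAR, Subread and featureCounts were used with GRCh38, while the strand setting and tool versions are not recorded there. Library totals in the table ran from 918783 to 1031234 CPM, and 3 reads corresponded to 0.0598 to 0.092 CPM, for counting error only. A gene was tested if 3 or more libraries reached 1 CPM (11892 of 11911), and all 39 genes described exceeded 1 CPM in every library. The log2(CPM + 1) values were tested with limma 3.58.1 in R 4.3.3 (empirical Bayes with an intensity trend, Benjamini-Hochberg over all tested genes, threshold 0.05). Reported fold changes are ratios of mean CPM, log2 changes are depleted minus with asparagine on log2(CPM + 1), and intervals are 95%. The GC correction was made for 11344 genes. In each library the difference of each gene from its mean over the libraries was taken. A lowess curve (span 0.3) of this difference against transcript GC content from GENCODE 29 was subtracted. Any GC-linked difference between the arms was thus removed as well. The procedure was tested on simulated data. Per-library values are given by rule for HSPA5, ERN1, XBP1, ATF6 and, in each class, the 5 called genes with the largest change and the most abundant gene, and genes not called are named. Values of further genes were added so that each is accounted for. Of each list of other genes, the 3 largest changes among called genes that reached 5 CPM in 1 arm are named. Genes outside that rule, such as EIF2AK3 and ATF4, were chosen after their values were seen. The members and lists were chosen with earlier results of these data known. Altogether 22 alternative settings were run, 1 of them chosen after seeing the data.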

Additional observations from a re-analysis of the deposited data

How the results depend on the processing

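Pseudocounts of 0.25 and 4 CPM, the low-value filters, rescaling by trimmed mean or median ratios, no intensity trend and robust moderation left the direction and call of all 39 genes as reported. Over all 22 settings 10 to 20 of the 39 genes were called higher and 10 to 18 lower, and over the fits that each left out 1 library 10 to 18 in either direction. By class, sensors had 5 to 6 called higher and 0 to 2 lower, chaperones 2 to 5 and 8 to 13, and degradation genes 3 to 9 and 2 to 4. The other-folding list had 2 to 6 higher and 3 to 9 lower, and the further degradation list 5 to 13 and 2 to 7. Among all genes, leaving out 1 library gave 1728 to 4812 called higher and 1814 to 4913 lower, with the highest counts without depleted library 1, against 2987 and 3116 with all libraries. A threshold of 0.01 gave 1612 and 1703, and the GC correction without depleted library 1 gave 4487 higher. Signs changed for genes that were not called. ATF6B was 0.016 with quantile normalization, -0.25 to 0.0048 when 1 library was left out (the highest without depleted library 3), 0.32 with the GC correction, 0.35 with that correction without depleted library 1, and 0.32 with it and the replicate block. SYVN1 ran from -0.16 to 0.14 when 1 library was left out, below 0 without asparagine library 3 and without depleted library 1. EDEM2 was -0.051 with quantile normalization and ran from -0.096 to 0.072 when 1 library was left out, below 0 without the same pair of libraries. The cause of these shifts was not tested. Same-numbered libraries deviated together with correlations of 0.0832, -0.645 and 0.686, and not every library correlated best with its own number, so the numbers were not taken as pairs. With the replicate block 14 of the 39 genes were called higher and 13 lower, and 2824 and 2989 of all genes. HYOU1 (adjusted p = 0.0644) and SEC61B (adjusted p = 0.082) were then not called and HSP90B1 was (adjusted p = 0.0399). Reads recovered from the table with limma's voom weights gave 15 higher and 14 lower, and no other count model was run. Every one of the 39 genes had at least 94 reads in each library.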

Other observations

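Genes that carry proteins into, through and out of the ER were described by lists as well, with no explanation drawn, and are to be read against the 25.1% of all tested genes called higher and 26.2% lower. Of 20 translocation and signal peptidase genes 5 (25.0%) were called higher, a share like the background, and 2 (10.0%) lower (median log2 change 0.23), led by SEC62 (1.43, adjusted p = 0.0109), SSR4 (-1.20, adjusted p = 0.0154) and SSR3 (1.13, adjusted p = 0.00871). After the GC correction 5 were higher and 7 lower, where 35.1% and 34.3% of all genes were. The list's median was then -0.11, with SEC62 at 0.83 and SSR4 at -0.65. Of 17 genes of the calnexin cycle and N-glycosylation 1 (5.88%) was higher and 8 (47.1%) lower (median -0.20), with ALG1, a mannosyltransferase, at -1.01 (adjusted p = 0.0136), ALG2 at 0.79 (adjusted p = 0.00262) and MOGS, glucosidase I, at -0.77 (adjusted p = 0.0382). With GC content corrected 1 gene of this list was higher and 11 lower (median -0.25), where 35.1% and 34.3% of all genes were. ALG2 was then at 0.53 and MOGS at -0.21.

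ER-phagy receptors, which hand pieces of ER to autophagy, were higher for 4 of 8 genes (50%) and lower for 1 (12.5%) (median 0.53). CCPG1 stood at 4.44, 3.34 and 5.12 CPM with asparagine and 24.5, 64.0 and 66.6 CPM when depleted, a log2 change of 3.20 (SE 0.39, adjusted p = 0.00113). FAM134B rose from 4.39, 5.38 and 4.82 CPM to 29.2, 44.1 and 46.9 CPM (log2 change 2.78, SE 0.20, adjusted p = 0.000233), and RTN3 from 122.8, 121 and 129.9 CPM to 257, 305 and 299 CPM. No values of these 3 genes overlapped between the arms. Of 14 COPII and KDEL receptor genes 7 (50%) were higher and 2 (14.3%) lower (median 0.46). After the GC correction 6 were higher and 2 lower, where 35.1% and 34.3% of all genes were, and the list's median was 0.22. SAR1B was at 1.32 (adjusted p = 0.00479), SEC24A at 0.84 (adjusted p = 0.0373) and SEC13 at -0.67 (adjusted p = 0.0258). The last pair stood at 0.25 and -0.39 with GC content corrected. The 7 partners and targets of IRE1 tested included none called higher and 2 (28.6%) lower (median -0.58). Of all tested genes 25.1% were called higher and 26.2% lower, so the lower share was like the background. After the GC correction none was higher and 3 were lower, where 35.1% and 34.3% of all genes were, and the list's median was -0.14. The adaptor TRAF2 was at -1.01 (adjusted p = 0.0155), or -0.44 with GC content corrected. RTCB, the ligase that completes XBP1 splicing, was at -0.58 (adjusted p = 0.00745). ERN1 itself rose 23.8-fold in the same libraries. Calls of some named genes were lost when 1 library was left out. MOGS, SEC24A and SEC13 (adjusted p up to 0.123, 0.12 and 0.0922) kept theirs, among those fits, only without depleted library 1. SSR4 and TRAF2 lost theirs without asparagine library 1 or 2 or depleted library 2 (adjusted p up to 0.0564 and 0.0628), and ALG1 without asparagine library 2 (adjusted p = 0.0582). Calls in these lists moved with the setting: over the alternatives, 1 to 12 translocation genes were higher and 0 to 10 lower, 1 to 5 N-glycosylation genes were higher and 1 to 14 lower, and 1 to 11 COPII genes were higher and 0 to 2 lower. For the IRE1 partners the ranges were 0 to 1 higher and 1 to 5 lower, and for ER-phagy genes 3 to 4 and 0 to 1.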
